A study of Mus musculus with 13 samples.

Results

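ATP-binding cassette (ABC) transporter genes were examined in mouse livers. The mice had received antisense oligonucleotides (ASOs) against the long non-coding RNA LL35, also named Falcor, or a control ASO. The members were the protein-coding genes of the liver table whose symbol begins with Abc, a class letter from a to g and a digit. One further family gene was left out by the rule, and 37 members remained among 11779 listed genes, 11396 of them protein-coding. The livers came from 6 Balb/c mice, whose age and sex are not given in the labels. The Liver LL35 ASO group held 3 mice that were given a mix of GalNAc-conjugated ASOs against LL35, 5 in the study's text and fewer in its list of oligonucleotides for mice, and the Liver Luc ASO group held 3 mice given a GalNAc-conjugated ASO against firefly luciferase, which mice lack. GalNAc is a sugar that directs an oligonucleotide to hepatocytes. All livers were collected on day 5 after injection, and the dose was 150 mg/kg, which the labels give for each ASO and the study's text for the whole mix. The same series holds 7 libraries of AML12 cells, a mouse hepatocyte line, which were not analysed here.

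The liver table holds 1 level per gene, the authors' mean normalized count over the compared libraries, and its other numeric columns are the authors' own comparison of the ASO groups, which was not used. For this reason, the text describes how much RNA of each transporter gene the livers of both ASO groups held together. It gives no difference between the LL35 ASO and Luc ASO groups. No value of a single mouse was at hand, so no level below carries an error or a number of replicates, and the order of genes with close levels could not be tested. The mean normalized counts of all listed genes summed to 11299288, and the lowest was 15.6. The depth of each library is unknown. Hepatocyte markers stood among the highest genes, as Alb (serum albumin) had a mean normalized count of 1217472 and Apob (the protein of very low density lipoprotein) had one of 195548.

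ABC proteins share an ATP-binding module that turns the energy of ATP into movement of a substrate across a membrane. Full transporters carry a pair of such modules and a pair of membrane domains in a single chain, and half-transporters carry 1 set and work as dimers. Proteins of classes E and F have the ATP-binding modules without a membrane domain and act on ribosomes. In the liver, ABC transporters are known for the export of phospholipid, sterol and conjugated waste into bile, for the loading of lipoproteins with cholesterol, and for the import of fatty acids into peroxisomes. Levels of different genes are compared below per kilobase of coding sequence or of exon, since a longer transcript yields more reads. The counts also take in reads from untranslated sequence, which the coding length leaves out. A gene with much untranslated sequence can therefore stand higher on the coding scale than on the exon scale. Coding lengths were taken from GENCODE release M21, and the annotation release used by the authors is not given in the sources used here.

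Reference promoters are shown for Abcc2, the member with the highest mean normalized count, for the pair Abcg8 and Abcg5, whose proteins work only together, and for Abca9, the member that the study chose for RT-qPCR. Each window runs from 250 bases before to 50 bases after the RefSeq transcription start on GRCm38.p6 and is written 5′ to 3′ on the strand of the gene. In the Abcc2 window (chr19:43782058-43782357, plus strand), capitals mark matches to the searched motifs. In the Abcg8 window (chr17:84682871-84683170, plus strand), capitals mark the 209 bases that also lie in the window of Abcg5 (chr17:84682962-84683261, minus strand). The Abca9 window (chr11:110168104-110168403, minus strand) held no match and has no capitals.
Abcc2: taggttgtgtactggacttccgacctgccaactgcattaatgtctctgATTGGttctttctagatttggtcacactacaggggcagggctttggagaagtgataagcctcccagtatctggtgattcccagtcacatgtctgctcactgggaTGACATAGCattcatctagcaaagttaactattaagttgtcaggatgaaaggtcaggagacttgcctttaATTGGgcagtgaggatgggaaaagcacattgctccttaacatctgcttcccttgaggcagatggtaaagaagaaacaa
Abcg8: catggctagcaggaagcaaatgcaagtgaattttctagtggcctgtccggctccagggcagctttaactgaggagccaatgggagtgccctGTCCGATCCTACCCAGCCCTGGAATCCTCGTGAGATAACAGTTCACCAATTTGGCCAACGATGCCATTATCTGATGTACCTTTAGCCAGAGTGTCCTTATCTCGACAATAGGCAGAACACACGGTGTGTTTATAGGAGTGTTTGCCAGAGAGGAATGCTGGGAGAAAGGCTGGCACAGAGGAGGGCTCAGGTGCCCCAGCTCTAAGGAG
Abca9: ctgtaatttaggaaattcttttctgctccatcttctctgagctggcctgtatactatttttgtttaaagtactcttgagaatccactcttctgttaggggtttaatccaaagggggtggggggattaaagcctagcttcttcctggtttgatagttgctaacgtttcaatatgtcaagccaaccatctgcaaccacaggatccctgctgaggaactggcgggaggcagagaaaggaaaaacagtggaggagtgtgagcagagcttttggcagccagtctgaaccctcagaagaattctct

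The motifs searched on both strands were the TATA box, spelled TATAAA, and the CCAAT box, spelled by its name. The others were the GC box, spelled GGGCGG, and the core of the antioxidant response element, spelled TGACNNNGC. None of these motifs overlapped another in the printed windows. In the Abcc2 window, CCAAT was found on the minus strand with its leftmost base at -202 and -28 from the start, and TGACNNNGC on the plus strand at -98. In the Abcg8 window, CCAAT was found on the plus strand at -175 and -114, and TATAAA on the minus strand at -31. Of the 32851 RefSeq windows of this kind, 37.4% held CCAAT, 12.4% held TGACNNNGC, 13.6% held TATAAA and 35.7% held GGGCGG. These matches describe the letters of the windows and are not evidence of binding. Windows were found for 27 of the 37 members (73.0%), under the minimum of 80% set for a comparison over the whole family, so promoter properties of the family were not compared.

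Most ABC transporter genes lay above the middle of the listed genes by mean normalized count. The members' median was 582, against 244 over all 11396 listed protein-coding genes, and 27 of 37 members (73.0%) exceeded the latter. Levels ran from 33.5 for Abcb9 to 13959 for Abcc2, a ratio of 417. The members' sum of 67413 made up 0.597% of the level of all listed genes. Per kilobase of coding sequence the members lay close to the listed genes, with a median of 200.0 against 168 over the 11362 listed protein-coding genes with a coding length, and 20 of 37 members (54.1%) exceeded that median. Per kilobase of exon the medians lay further apart, at 98.2 against 52.1, and 23 of 37 members (62.2%) exceeded the latter. Members have longer coding sequences than most genes, with a median of 1276 codons against 476. Their merged exons were closer in length to those of the listed genes, at a median of 6272 bases against 4598.5. For this reason, levels are given on more than 1 scale.

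**Figure D1:**
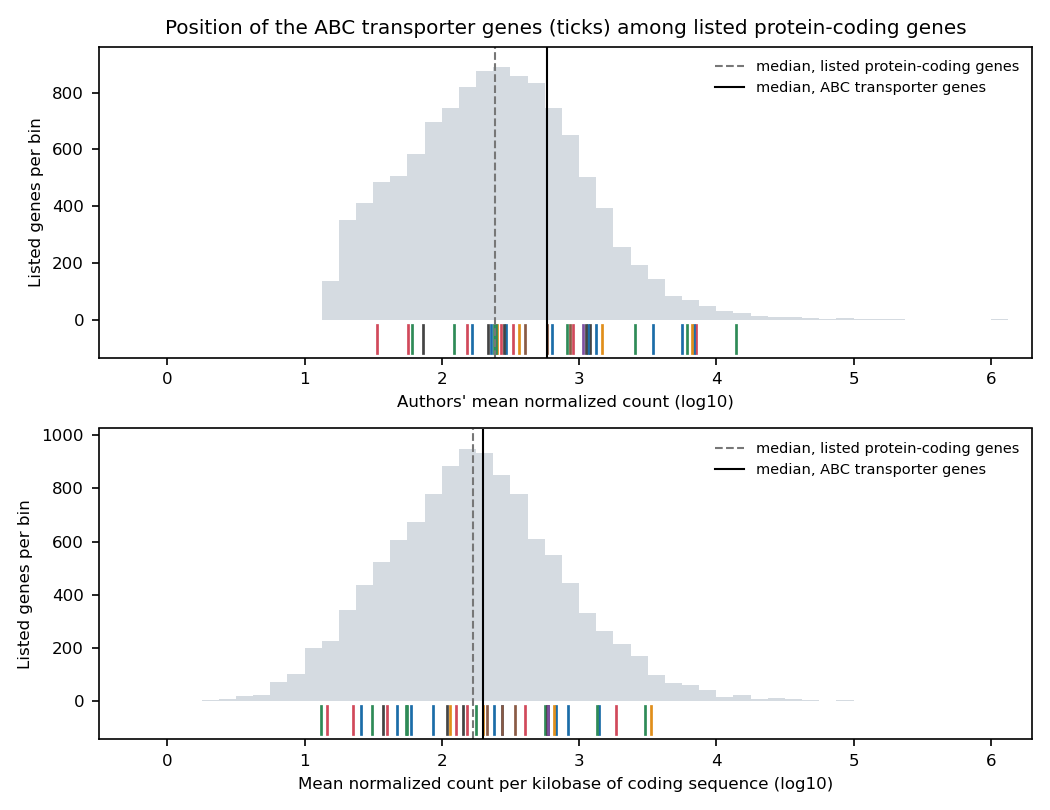
Histograms of the authors' mean normalized count (upper panel) and of the same value per kilobase of coding sequence (lower panel) over listed protein-coding genes on log10 axes, with the 37 ABC transporter genes as ticks coloured by class. The members' median of 582 lies to the right of the listed median of 244 in the upper panel, and the medians of 200.0 and 168 lie close together in the lower one.

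A few genes held most of the family's RNA. The 5 highest by mean normalized count were Abcc2, Abcb4, Abca6, Abcd3 and Abcc3, which together held 60.5% of the members' sum. The 20 lowest held 7.44%. Abcc2 alone held 20.7%, and the step from it to Abcb4, 1.95 times, was the widest between neighbours in the order. In 19 of the 36 steps of the order, neighbouring members differed by less than 1.1 times. Per kilobase of coding sequence the same 5 genes led, but Abcd3 stood first with 3363, ahead of Abcc2 with 3015. The widest step on this scale, 1.61 times, lay between Abcc3 and Abca1, and 12 of the 36 steps were under 1.1 times. Abcc2 stood first again per kilobase of exon, where Abcd3 had 0.616 times its level. The 5 lowest members on the coding scale were Abcc4, Abca7, Abcb6, Abcb9 and Abcc1, between 30.8 and 13.3. By mean normalized count and per kilobase of exon, the 5 lowest held Abcg3 in place of Abca7.

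**Figure D2:**
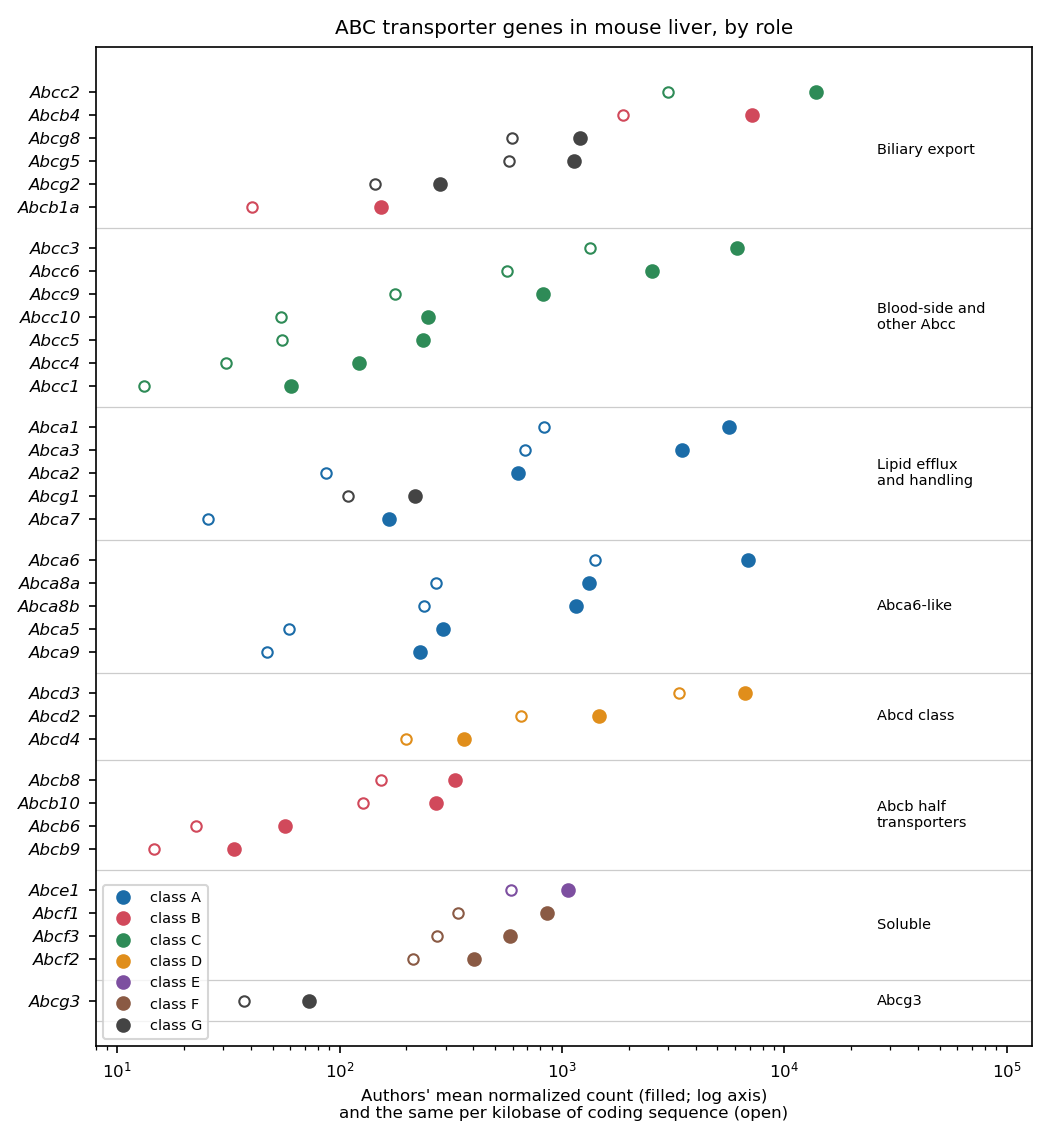
Authors' mean normalized count of 35 of the 37 genes (filled points) and the same value per kilobase of coding sequence (open points) on a log axis, grouped by role and coloured by class. Each point is 1 value over the compared livers with no error. The biliary exporters run from Abcc2 at 13959 to Abcb1a at 154 in mean normalized count, while the soluble proteins run from 1065 to 404.

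Exporters of the bile canaliculus, the membrane through which hepatocytes secrete bile, held the largest share of the family's RNA among the role groups. The 6 listed members held 35.5% of the members' sum. Abcc2 (MRP2), which exports bilirubin glucuronides and glutathione conjugates, had a mean normalized count of 13959, higher than 99.4% of listed protein-coding genes. Abcb4 (MDR2), which moves phosphatidylcholine to the bile side of the membrane, had a mean normalized count of 7171, in the 98.6th percentile. Per kilobase of coding sequence, Abcc2 stood at 3015 and Abcb4 at 1873, in the 96.6th and 93.9th percentiles. Abcc2 was thus 1.61 times higher, and 2.14 times higher per kilobase of exon. Abcg2 and Abcb1a stood far lower on the coding scale, at 144 and 40.2. Abcg2 (BCRP), which exports urate, porphyrins and drugs, had a mean normalized count of 283. Abcb1a (P-glycoprotein), which expels hydrophobic drugs, had one of 154, and 17.6% of its distinct windows of 50 bases also occur in transcripts of other genes, chiefly Abcb1b. The window length is an assumption, since the read length printed in the study's methods is too short to align and the true length is not known here. Reads that lie in shared sequence cannot be assigned to 1 gene, so the level of Abcb1a is uncertain. Abcb4 was 46.6 times higher than Abcb1a per kilobase of coding sequence and 27.2 times higher per kilobase of exon, ratios that carry the same uncertainty. Both genes encode 1276 codons and lie in 1 cluster on chromosome 5 with Abcb1b between them.

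Abcg5 and Abcg8 encode the partners of the sterol exporter of the bile canaliculus, and their levels were close. The mean normalized count was 1203 for Abcg8 and 1133 for Abcg5. Relative to coding length they stood at 596 and 579 per kilobase, a ratio of 1.03. Per kilobase of exon, which counts untranslated sequence too, the ratio was 0.768. Close levels therefore hold on the coding scale, and which of the genes is higher depends on the length used. Their starts point away from each other and lie 110 bases apart in the promoter window printed above, although RefSeq gives Abcg8 another start as well. Neither gene shared a window of 50 bases with another gene.

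Among the Abcc genes outside the bile canaliculus, Abcc3 and Abcc6 held most of the RNA. Abcc3 (MRP3), which exports glucuronides towards the blood, had a mean normalized count of 6136. Abcc6, which hepatocytes need to release ATP and whose loss leads to mineral deposits in soft tissue, had a mean normalized count of 2555. These counts lay in the 98.2nd and 94.8th percentiles of listed protein-coding genes. Per kilobase of coding sequence the 2 genes lay lower, in the 91.2nd and 79.6th percentiles, and per kilobase of exon in the 96.9th and 92.5th. Abcc2 was 2.25 times higher than Abcc3 per kilobase of coding sequence and 1.52 times higher per kilobase of exon. The remaining exporters of conjugates and nucleotides had mean normalized counts of 249.8 for Abcc10, 238 for Abcc5 and 122 for Abcc4 (MRP4, an exporter of cyclic nucleotides). Abcc10 and Abcc5 lay near the listed median by count, but per kilobase of coding sequence they stood at 54.6 and 55.3, against the listed median of 168. Abcc1 (MRP1), the exporter of leukotriene C4 and glutathione conjugates in many tissues, had a mean normalized count of 60.8 and was the lowest member per kilobase of coding sequence, at 13.3. Abcc2 exceeded it by 227 times on that scale and by 406 times per kilobase of exon.

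Abcc9, a sulfonylurea receptor that forms ATP-sensitive potassium channels, had a mean normalized count of 823, in the 80.6th percentile. Per kilobase of coding sequence it stood at 177, in the 51.5th percentile, and per kilobase of exon it lay in the 68.7th. It is known from pericytes and smooth muscle rather than hepatocytes. The 4 stellate cell markers examined were all listed, with mean normalized counts of 1823 for Reln, 1549 for Dcn, 197 for Lrat and 119 for Col1a1. In bulk liver the level of a gene joins the number of cells that make it and the RNA made per cell, which cannot be told apart. The cell type behind the Abcc9 level was not tested.

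Lipid transporters of class A and Abcg1 spanned a wide range. Abca1, which loads cholesterol and phospholipid onto apolipoprotein A-I to form HDL, had a mean normalized count of 5657, in the 98.0th percentile. Abca3, known for the packing of surfactant lipid in the lung, had one of 3473, in the 96.5th percentile, and per kilobase of coding sequence it stood at 0.815 times the level of Abca1. It ranked seventh in the family on both of these scales. Per kilobase of exon it ranked 9th, at 0.679 times the level of Abca1. Per kilobase of coding sequence, Abca1 and Abca3 lay in the 85.8th and 82.9th percentiles of listed protein-coding genes. Per kilobase of exon they lay in the 93.8th and 90.8th. Abca3 shared 1.67% of its windows of 50 bases with other genes, chiefly its neighbour Abca17, which is not among the genes listed. Abca2, an endolysosomal lipid transporter, had a mean normalized count of 634. Abcg1, which passes cholesterol to HDL, had one of 217, and Abca7, a phospholipid transporter linked to phagocytosis, one of 166. Abca1 exceeded Abcg1 by 7.67 times per kilobase of coding sequence and by 18.3 times per kilobase of exon. Abcg1 and Abca7 are also expressed by macrophages, and the 4 Kupffer cell markers examined ran from 156 for Cd68 to 1954 for Clec4f in mean normalized count. The contribution of macrophages to these levels was not tested.

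The Abca6-like genes, 5 related transporters of uncertain substrate, differed widely in level between neighbours. They lie in a row on chromosome 11, all on the minus strand and with no other protein-coding gene between them, in the order Abca8b, Abca8a, Abca9, Abca6 and Abca5. Their mean normalized counts in that order were 1163, 1323, 229.6, 6861 and 292. Abca6 was the third highest member of the family and was flanked by the lowest genes of the row. Their coding sequences are alike in length, from 1620 to 1642 codons. On the coding scale, Abca6 was 29.9 times higher than Abca9, 23.7 times higher than Abca5 and 5.17 times higher than Abca8a.

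Abca9, which the study chose for RT-qPCR, was the lowest gene of the row by mean normalized count. The study's RT-qPCR compared LL35 depletion with the control, whereas the level given here covers both ASO groups together. The count of Abca9 lay in the 48.3rd percentile of listed protein-coding genes. Per kilobase of coding sequence it lay in the 19.2nd, and per kilobase of exon in the 32.5th. Abca5 was 1.26 times higher than Abca9 per kilobase of coding sequence but 0.896 times its level per kilobase of exon, so the order of these lowest genes depends on the length used. Abca6 stayed highest on each scale, with 44.5 times the level of Abca9 and 49.7 times that of Abca5 per kilobase of exon. Shared sequence between the genes was small. Abca9 shared 0.162% of its windows of 50 bases with other genes, chiefly Abca6, and Abca8a and Abca8b shared 1.64% and 1.42%, chiefly with each other.

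**Figure D3:**
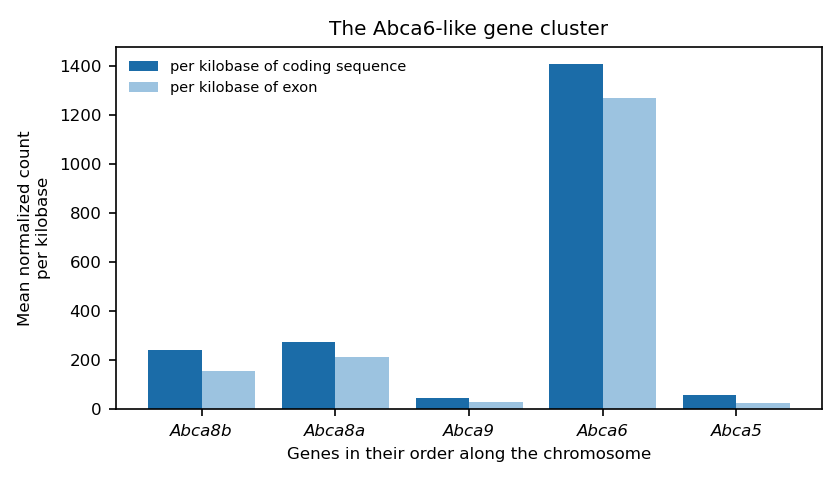
Mean normalized count per kilobase of coding sequence (dark bars) and per kilobase of exon (light bars) for the 5 Abca6-like genes in their order on chromosome 11. Abca6 reaches 1408 and 1271, while its neighbours Abca9 and Abca5 stay at 59.3 or below on both scales.

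The class D genes encode half-transporters of peroxisomes, with the exception of the lysosomal Abcd4. Abcd3 (PMP70), which imports branched-chain acyl-CoA and the precursors of bile acids, had a mean normalized count of 6649. It was the highest member of the family per kilobase of coding sequence, at 20.0 times the median of the listed genes, but the fourth per kilobase of exon. Abcd2, which imports very long chain fatty acyl-CoA, had a mean normalized count of 1461. On the coding scale Abcd3 exceeded Abcd2 by 5.12 times, and on the exon scale by 4.10 times. Abcd4, which takes part in the export of cobalamin from lysosomes, had a mean normalized count of 364. Pex19, which delivers such proteins to the peroxisome, had a mean normalized count of 1113, and Pex3, its docking receptor, one of 232.

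Half-transporters of class B serve mitochondria and lysosomes. The 5 members held 2.38% of the family's summed level. Abcb8, a mitochondrial protein, had a mean normalized count of 329, and Abcb10, needed for heme synthesis, had one of 272. The lowest counts of the family were those of Abcb6, a porphyrin transporter, at 56.9 and Abcb9, a lysosomal peptide transporter, at 33.5. Of the windows of Abcb6, 50.01% also occur in transcripts of other genes, chiefly the annotated gene Gm29253. Reads of Abcb6 can go uncounted where both genes are in the annotation, so the level of Abcb6 is uncertain.

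Soluble ABC proteins, which do not transport, had the narrowest range of the role groups with more than 1 member. Abce1, which splits ribosomes after translation ends, had a mean normalized count of 1065. Abcf1, which takes part in the start of translation, had one of 860.1, Abcf3 one of 582 and Abcf2 one of 404. All 4 exceeded the median of the listed genes on both scales. Their highest level was 2.76 times their lowest per kilobase of coding sequence, against 29.9 times over the 5 Abca6-like genes. Over the whole family of 37 the ratio was 253.5 times, but such a ratio tends to grow with the number of genes. Per kilobase of exon the soluble proteins ran from 157 to 195. Abcg3, a class G gene found in rodents and not in humans, had a mean normalized count of 72.6 and stands outside these roles.

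By class, class C held 35.8% of the members' summed mean normalized counts, class A 29.4%, class B 13.2%, class D 12.9%, class G 4.32%, class F 2.74% and class E 1.58%. These shares take no account of the length of the genes. Coding lengths fell into separate ranges, from 1276 to 2433 codons for the 19 full transporters and from 606 to 842 for the 14 half-transporters. Taken per kilobase of coding sequence, the share of the full transporters went from 76.0% to 57.7%, and that of the half-transporters from 19.6% to 34.7%. With these separate ranges, division by coding length is bound to lower the share of the full transporters. Per kilobase of exon the shares were 68.3% and 24.8%. On the coding scale class D gained most, from 12.9% to 23.1%, and class A lost most, from 29.4% to 19.5%. Per kilobase of exon these shifts were small, with class D at 13.6% and class A at 27.0%, while class G went from 4.32% to 8.22%.

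**Figure D4:**
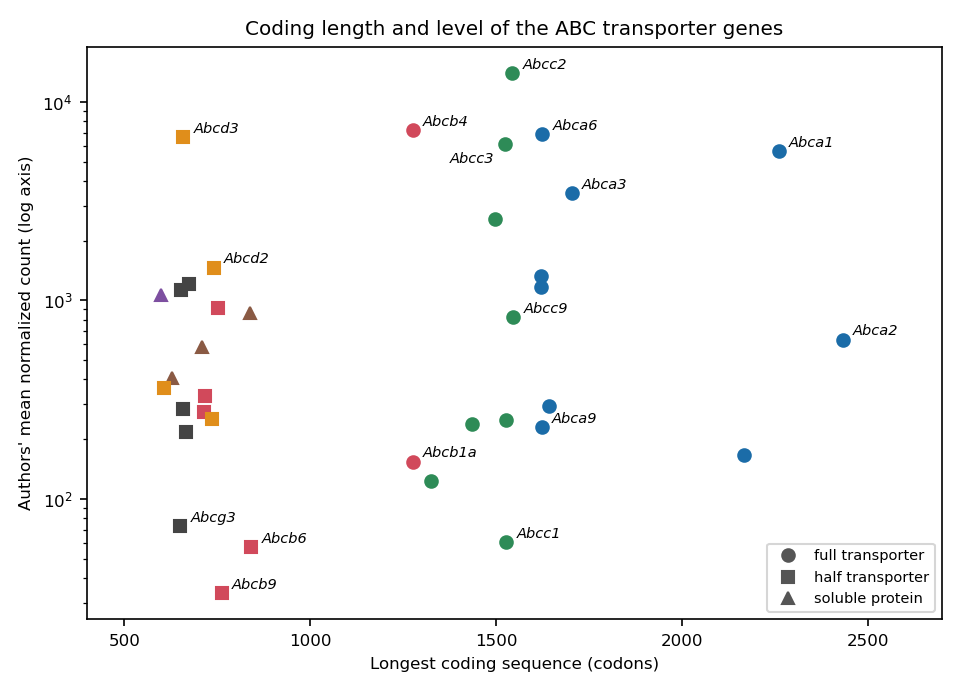
Authors' mean normalized count (log axis) against the longest coding sequence in codons for the 37 genes, coloured by class, with full transporters as circles, half-transporters as squares and soluble proteins as triangles. Full transporters start at 1276 codons and half-transporters end at 842, and high and low levels occur at either length.

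**Figure D5:**
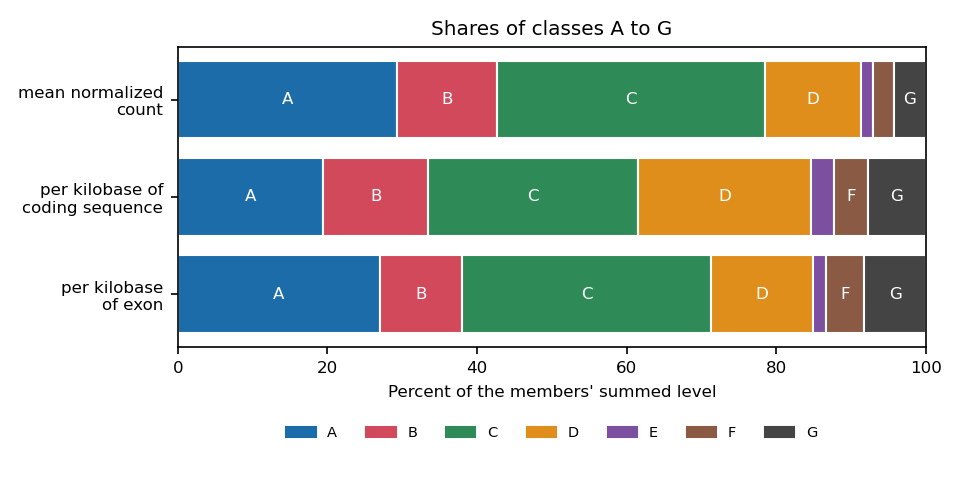
Share of each class in the members' summed level, as a percent, by mean normalized count, per kilobase of coding sequence and per kilobase of exon. Class C takes the widest part on each scale, with 35.8%, 28.0% and 33.3%.

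ABC genes under other symbols, regulators of the family and cell type markers were also examined. Tap1 and Tap2, which carry peptides into the endoplasmic reticulum for MHC class I, had mean normalized counts of 229.6 and 414. Cftr, the chloride channel of bile duct cells, is not among the genes listed, and neither are 3 of the 4 cholangiocyte markers examined, Krt19, Krt7 and Epcam, while Sox9 had a mean normalized count of 41.1. All 8 regulators examined were listed. Per kilobase of coding sequence they ran from 312 for Nr1h2 (LXR beta) to 4868 for Rxra, with which LXR, PXR, CAR and PPAR alpha bind DNA. Mean normalized counts were 5067 for Nr1i3 (CAR), 3894 for Ppara, 1386 for Nr5a2, 1296 for Nr1i2 (PXR), 1069 for Nr1h3 (LXR alpha) and 868 for Nfe2l2 (NRF2). Apoa1, the acceptor of the lipid exported by Abca1, had a mean normalized count of 81025. Rdx (radixin), which holds Abcc2 at the canaliculus, stood at 1355 per kilobase of coding sequence, against 50.9 for the related Ezr. All 4 endothelial markers examined were listed, from 121 for Lyve1 to 2171 for Stab2 in mean normalized count, and 2 of 4 lymphocyte markers, Ptprc at 384 and Cd3e at 18.6.

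Beside the gene left out by the rule, GENCODE release M21 names 49 protein-coding genes by the same pattern, of which 12 were not among the genes listed. They were Abca4, Abca12, Abca13, Abca14, Abca15, Abca16, Abca17, Abcb1b, Abcb5, Abcc8, Abcc12 and Abcg4. Abca4 is known from photoreceptors, Abca12 from skin and Abcc8 from pancreatic beta cells. Whether these genes were under the lowest listed level of 15.6 is not known, so no level is given for them. Each of the 37 listed members had passed whatever limit the table was made with, and the family's median covers these alone.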

How the data were processed

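Total RNA of 3 Liver LL35 ASO and 3 Liver Luc ASO mice was depleted of rRNA and sequenced in directional libraries. The authors aligned reads with STAR 2.5.3a, counted them on Ensembl genes and normalized them with DESeq2 by the RLE method, and the genome build is not given in the sources used here. The deposited signal used is the mean normalized count of each gene over the compared libraries. The table's fold changes, standard errors, Wald statistics, p-values and adjusted p-values are the authors' own comparison and were not used, so no test was made. Depth per library, and with it the precision of each level, is unknown.

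Levels were divided by the longest coding sequence or by the merged exons of each gene in GENCODE release M21, to which 11754 of the 11779 listed genes were matched by identifier. Percentiles were taken among listed protein-coding genes. The planned level per residue is given per kilobase of coding sequence, which has the same order. Shared sequence is the percent of the distinct 50-base windows of a gene's transcripts found in transcripts of another gene, a window length that was assumed, since the read length is uncertain. Promoter windows came from RefSeq on GRCm38.p6. Members are named by role, and the highest and lowest are described further. All 37 enter the values of the family, but 2 are not reported singly here. The members and gene lists were chosen with earlier results of these data known. Alternatives changed the minimum level, the background, the pairs of related genes and the length. Only the small functions for percentiles, medians, shares, merged lengths, shared windows and reverse complements were checked, on known or simulated input. All steps ran under Python 3.11.15 with numpy 2.4.6, pandas 2.3.3, scipy 1.17.1 and matplotlib 3.10.9.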

Additional observations from a re-analysis of the deposited data

How the results depend on the processing

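Limits: 1 value per gene gives neither a spread between mice nor a comparison of the ASO groups, and leaving out a mouse could not be done. No paired analysis was possible because the table holds no columns of single mice. The number of members was 36 at a minimum level of 50 and 37 over every gene type. The members' median of 582 was 608 at a minimum of 50, 493 without the related genes Abca8a, Abca8b and Abcb1a, and 200.0 per kilobase of coding sequence, a different unit. The percentile of the median member, 72.8 among protein-coding genes, was 73.4 among all listed genes, 55.0 per kilobase of coding sequence and 68.7 per kilobase of exon, a scale added after the data were seen. The share of Abcc2 was 20.7%, and 16.1% per kilobase of coding sequence and 16.3% per kilobase of exon. Per kilobase of coding sequence, classes A to G held 19.5%, 14.0%, 28.0%, 23.1%, 3.16%, 4.42% and 7.81%. Per kilobase of exon they held 27.0%, 10.9%, 33.3%, 13.6%, 1.77%, 5.15% and 8.22%. Of the 10 highest members, 8 were among the 10 highest on each of the length scales.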

Other observations

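Level and coding length were only weakly related across genes. Spearman's rho was 0.149 over the 37 members and 0.155 over 11362 listed protein-coding genes, given as descriptions, since all genes share the same libraries and are not independent replicates. Among the members, the order by mean normalized count and the order per kilobase of coding sequence had a rho of 0.965, and values that share a numerator are bound to be related.

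Adjacent members did not always have close levels. The adjacent pair Abcg5 and Abcg8 differed by 1.06 times in mean normalized count, while Abca6 and its neighbour Abca9 differed by 29.9 times.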
